A study of Mus musculus with 12 samples.

Results

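The NFAT family and calcineurin were examined through 9 genes, taken by symbol from the deposited expression table: *Nfat5*, *Nfatc1*, *Nfatc2*, *Nfatc3*, *Nfatc4*, the calcineurin inhibitor gene *Rcan1* and the calcineurin subunit genes *Ppp3ca*, *Ppp3cb* and *Ppp3r1*. All 9 were found among the 52015 genes used, and 8 of them reached 0.5 FPKM (fragments per kilobase of transcript, scaled to the number of mapped fragments) in at least 1 group, *Nfatc4* being the exception. The question was how these genes differed between the groups, including whether the other NFAT genes differed where *Nfat5* was edited.

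RNA-seq was performed on mpkCCD cells, a mouse cortical collecting duct line, in 12 cultures. Scr cells carried a scramble guide RNA that has no target, and *Nfat5*-KO cells came from 2 clones (N1 and N3) in which *Nfat5* was deleted with CRISPR/Cas9. Both were kept for 5 days either in isotonic medium (300 mosmol/kg) or in hypertonic medium (600 mosmol/kg), which contained an additional 100 mM NaCl and 100 mM urea. This gave Scr_300 (2 libraries), Scr_600 (2 libraries), *Nfat5*-KO_300 (4 libraries) and *Nfat5*-KO_600 (4 libraries). The deposited table holds 1 FPKM value per gene and group, so no value below carries a replicate check, an error or a p-value, and the depth behind it is unknown. Differences between the 2 clones likewise cannot be seen within each *Nfat5*-KO value. An effect of the edit and a difference that arose when single cells were cloned cannot be told apart.

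All 5 epithelial marker genes exceeded 0.5 FPKM. They summed to 1645 FPKM in Scr_300, 1199 in Scr_600, 1543 in *Nfat5*-KO_300 and 1001 in *Nfat5*-KO_600. In both genotypes all 5 were lower in hypertonic than in isotonic medium. None of the 5 T cell and leukocyte markers exceeded 0.5 FPKM, and *Cd3e* was listed at 0 in all 4 groups. Of 10 principal cell markers, 4 exceeded 0.5 FPKM (*Aqp3*, *Scnn1a*, *Gata3* and *Hsd11b2*), and *Aqp2*, *Aqp4*, *Avpr2*, *Scnn1b*, *Scnn1g* and *Elf5* stayed below it in every group. Their summed level was 9.84 FPKM in Scr_300, 8.68 in Scr_600, 20.5 in *Nfat5*-KO_300 and 46.4 in *Nfat5*-KO_600. Both *Nfat5*-KO sums exceeded both Scr sums, but the markers did not move as 1 set. *Gata3* measured 3.41 FPKM in Scr_300, 4.33 in Scr_600, 11.8 in *Nfat5*-KO_300 and 30.0 in *Nfat5*-KO_600. *Scnn1a* and *Hsd11b2* were also highest in *Nfat5*-KO_600, at 7.03 and 6.18 FPKM. *Aqp3* measured 2.91, 2.07, 2.93 and 2.82 FPKM in the same order of groups. Of 3 proximal tubule markers only *Lrp2* exceeded 0.5 FPKM, at 1.07 FPKM in *Nfat5*-KO_600 against 0.0116 in Scr_600. No marker of intercalated cells, fibroblasts or endothelium exceeded 0.5 FPKM in any group. The 2 *Nfat5*-KO values of *Nfatc2* given below also exceeded both Scr values, and *Rcan1* was highest in *Nfat5*-KO_600. The part of these markers in the values of *Nfatc2* and *Rcan1* was not tested.

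NFAT proteins share a DNA-binding domain related to that of Rel and NF-kappaB proteins. The NFATc members wait in the cytoplasm as phosphoproteins, and calcineurin, a phosphatase switched on by calcium and calmodulin, strips their phosphates and sends them to the nucleus. NFAT5 lacks the calcineurin-binding region and is instead activated by hypertonicity, under which it induces genes that import or make organic osmolytes. *Rcan1* encodes a protein that binds and inhibits calcineurin, and its inner promoter is a classic calcineurin and NFATc target that gives a shorter form of the protein.

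The upstream windows of the genes with the largest differences are shown first, because *Rcan1* has 2 promoters that the gene-level FPKM value adds together. Each window is the 250 bases before a RefSeq transcription start in GRCm38.p6, written 5′ to 3′ on the strand of the gene, with every match to the NFAT core GGAAA in capitals (on the opposite strand it reads TTTCC). The *Rcan1* windows lie on the minus strand at chr16:92466170-92466419 (outer start) and chr16:92400079-92400328 (inner start), and the starts are 66091 bases apart. GENCODE M21 has *Rcan1* transcripts that begin 23 bases (outer) and 1 base (inner) downstream of these RefSeq starts, and the bases after both starts are identical. The *Nfat5* window lies on the plus strand at chr8:107293220-107293469, and that of the upstream *Nfatc2* start on the minus strand at chr2:168601658-168601907.
Rcan1 outer: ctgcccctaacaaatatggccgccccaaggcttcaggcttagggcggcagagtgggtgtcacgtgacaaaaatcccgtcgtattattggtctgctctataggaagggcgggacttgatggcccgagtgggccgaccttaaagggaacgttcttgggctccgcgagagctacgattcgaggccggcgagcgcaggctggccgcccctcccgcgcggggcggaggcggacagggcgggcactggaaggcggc
Rcan1 inner: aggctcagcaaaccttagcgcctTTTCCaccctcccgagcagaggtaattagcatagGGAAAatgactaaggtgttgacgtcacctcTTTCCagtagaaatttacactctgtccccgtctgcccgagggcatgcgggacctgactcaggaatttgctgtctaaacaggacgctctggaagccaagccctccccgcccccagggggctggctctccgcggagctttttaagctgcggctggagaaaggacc
Nfat5: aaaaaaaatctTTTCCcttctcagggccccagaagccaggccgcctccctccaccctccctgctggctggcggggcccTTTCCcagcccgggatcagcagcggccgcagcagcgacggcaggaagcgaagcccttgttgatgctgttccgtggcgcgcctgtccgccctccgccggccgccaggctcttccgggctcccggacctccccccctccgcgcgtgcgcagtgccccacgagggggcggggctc
Nfatc2: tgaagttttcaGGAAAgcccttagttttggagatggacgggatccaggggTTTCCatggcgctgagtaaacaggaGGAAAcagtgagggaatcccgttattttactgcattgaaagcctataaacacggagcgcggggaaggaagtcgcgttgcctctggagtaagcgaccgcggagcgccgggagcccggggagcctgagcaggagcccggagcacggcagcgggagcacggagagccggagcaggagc

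The outer *Rcan1* window held no GGAAA, while the inner one held 3, of which 2 were part of TGGAAA, the core of the tonicity-responsive enhancer bound by NFAT5. The inner window also had 1 match to TGANTCA, the motif of the NFAT partner AP-1. Counted on both strands in the same way, 55.6% of the 32851 RefSeq promoter windows held at least 1 GGAAA. There were 2 or more in 21.4% and 3 or more in 6.39%. At least 1 TGGAAA was found in 18.6%, 2 or more in 2.28% and TGANTCA in 6.75%. *Nfat5* had 2 GGAAA matches and no TGGAAA. The upstream *Nfatc2* window had 3, including 1 TGGAAA that extended to the full tonicity-responsive enhancer consensus, which was found in 4.31% of all windows. Other members had such matches too: the *Nfatc4* window held 3 GGAAA, 1 of them within TGGAAA, and the *Ppp3cb* window held 3 GGAAA and no TGGAAA. The window of the other *Nfatc2* start held 1 GGAAA and no TGGAAA. The *Ppp3r1* window and the downstream *Nfatc3* window held no GGAAA, and the upstream *Nfatc3* window held 1. In all, 10 windows of 7 of the 9 genes were present in the table, and such matches describe the letters only.

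*Nfat5* itself was transcribed in every group. The gene (ENSMUSG00000003847.16) spans chr8:107293470-107379517 on the plus strand, with 14 transcripts in GENCODE M21. Its level was 5.61 FPKM in Scr_300, 7.93 in Scr_600, 3.47 in *Nfat5*-KO_300 and 6.88 in *Nfat5*-KO_600. It was thus lowest in the isotonic *Nfat5*-KO cells, and at each osmolality the *Nfat5*-KO value was the lower one. *Nfat5*-KO_300 relative to Scr_300 had a log2 ratio of -0.68, calculated on FPKM + 0.1 as are all log2 ratios below, and 4.86% of the 12704 genes compared were as low or lower. At 600 mosmol/kg it was -0.20, a value that 31.1% of the 13063 genes compared matched or lay below. The position of the edit is not given in the sources used here and an edited gene can still be transcribed, so these levels do not check the knockout.

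The labels were also set beside 8 widely known NFAT5 target genes, of which 5 reached 0.5 FPKM in every group (*Akr1b3*, *Slc5a3*, *Slc6a6*, *Hspa1b* and *Hspa4l*). In *Nfat5*-KO_600 against Scr_600, 4 of these 5 were lower by at least 2-fold, where 7.44% of all genes were past 2-fold in either direction, and their log2 ratios ranged from -2.44 to -0.03. *Akr1b3*, which encodes the sorbitol-forming aldose reductase, measured 175 FPKM in Scr_600 and 39.2 in *Nfat5*-KO_600, whereas *Slc6a6*, the taurine transporter gene, measured 33.7 and 33.0 FPKM. Of the same 5 genes, 4 were at least 2-fold higher in Scr_600 than in Scr_300, as were 622 of all 12929 genes compared. In *Nfat5*-KO_600 against *Nfat5*-KO_300, 2 of the 5 were at least 2-fold higher, as were 812 of 12982 genes. The other targets did not reach 0.5 FPKM in every group: from Scr_600 to *Nfat5*-KO_600, *Slc6a12* measured 2.10 and 0.135 FPKM, *Ranbp3l* 3.53 and 0.0127 FPKM, and the water channel gene *Aqp2* 0.245 and 0.219 FPKM.

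**Figure D1:**
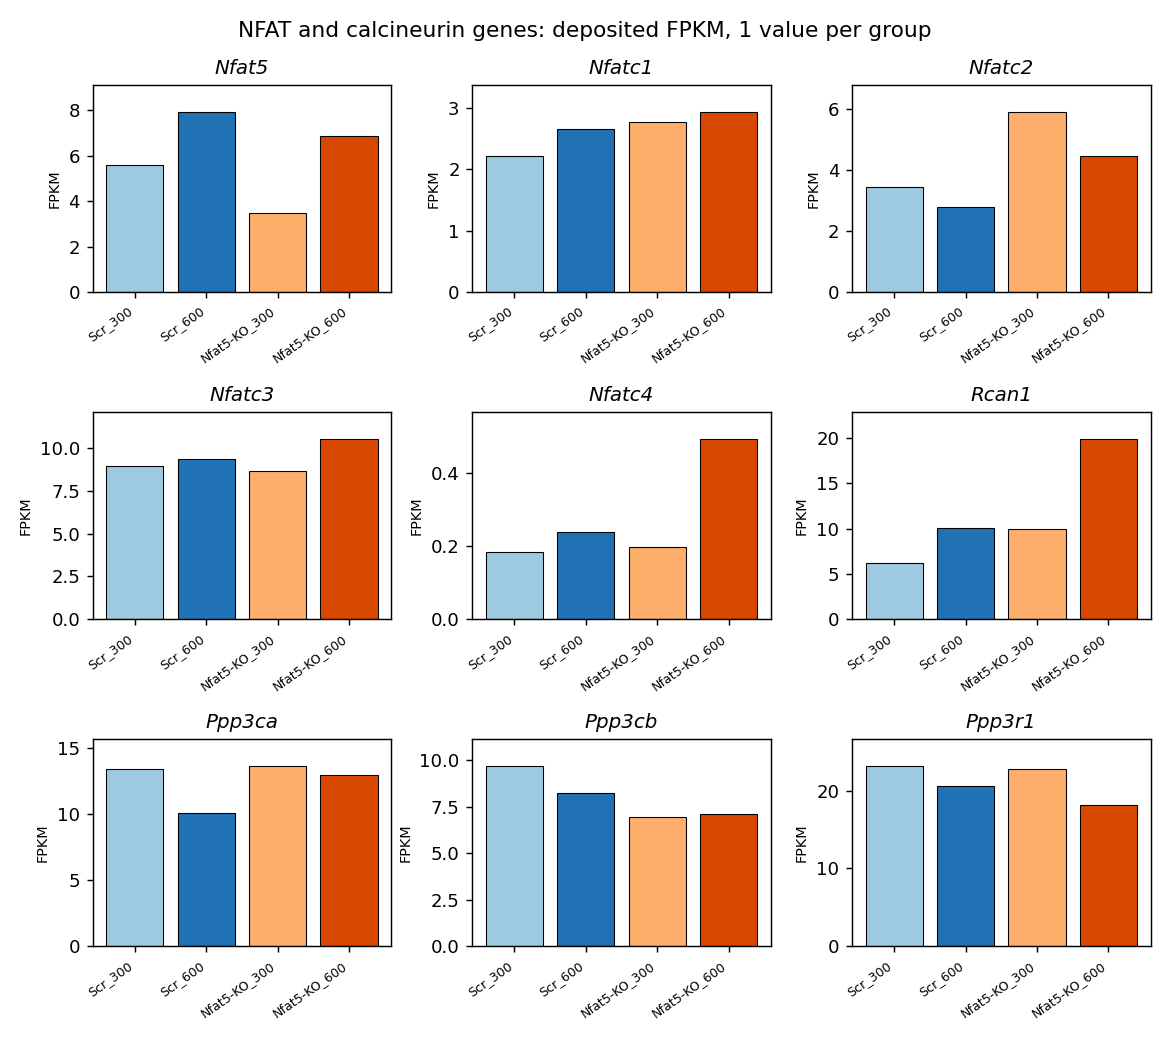
Deposited FPKM value (y axis, linear from 0) of each of the 9 genes in the 4 groups, 1 bar per group and no error bars since there is 1 value per group. *Rcan1* is lowest in Scr_300, nearly equal in Scr_600 and *Nfat5*-KO_300, and highest, at 19.9 FPKM, in *Nfat5*-KO_600. Both *Nfat5*-KO bars of *Nfatc2* exceed both Scr bars, and the 3 calcineurin subunit genes differ by at most 1.39-fold between their highest and lowest group.

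Among the calcineurin-regulated factors above 0.5 FPKM, *Nfatc2* had the largest ratio between the genotypes at both osmolalities. *Nfatc2* (chr2:168476410-168601657, minus strand) encodes NFAT1, the main NFAT of resting T cells. It measured 3.44 FPKM in Scr_300, 2.79 in Scr_600, 5.90 in *Nfat5*-KO_300 and 4.45 in *Nfat5*-KO_600. Both *Nfat5*-KO values exceeded both Scr values, with log2 ratios of 0.76 at 300 and 0.65 at 600 mosmol/kg, and 3.07% and 8.24% of all genes compared had ratios as high or higher. In both genotypes the hypertonic value was the lower one, with log2 ratios of 600 to 300 of -0.29 in Scr and -0.40 in *Nfat5*-KO. The leukocyte markers, whose summed level was at most 0.0288 FPKM, were near 0 in all groups.

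*Nfatc3* was the most abundant NFAT transcript per length in every group and the steadiest. It measured 8.97 FPKM in Scr_300, 9.36 in Scr_600, 8.66 in *Nfat5*-KO_300 and 10.5 in *Nfat5*-KO_600, a range of 1.21-fold. *Nfatc3* (chr8:106058840-106130537, plus strand) ends 1.16 Mb before *Nfat5*, and its log2 ratios of *Nfat5*-KO to Scr were -0.05 at 300 and 0.16 at 600 mosmol/kg. Its exons share 219 bases with *Esrp2*, an epithelial splicing regulator gene on the opposite strand that measured 19.0, 30.1, 17.3 and 17.1 FPKM in Scr_300, Scr_600, *Nfat5*-KO_300 and *Nfat5*-KO_600. The sources used here do not describe a strand-specific library, so reads from these shared bases cannot be assigned to either gene.

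*Nfatc4* was barely expressed. Its level was 0.185 FPKM in Scr_300, 0.237 in Scr_600, 0.197 in *Nfat5*-KO_300 and 0.492 in *Nfat5*-KO_600, just short of the 0.5 FPKM required for the counts below. The *Nfat5*-KO_600 value stood apart from the other three, with a log2 ratio to Scr_600 of 0.81 that was 0.27 with a pseudocount of 1 FPKM and 1.02 with 0.01 FPKM. Relative to *Nfat5*-KO_300 the log2 ratio was 1.00, which was 0.32 with a pseudocount of 1 FPKM and 1.28 with 0.01 FPKM.

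For the NFATc genes as a whole, the summed level was 14.8 FPKM in Scr_300, 15.0 in Scr_600, 17.5 in *Nfat5*-KO_300 and 18.4 in *Nfat5*-KO_600. The log2 ratio of this sum between *Nfat5*-KO and Scr was 0.24 at 300 and 0.29 at 600 mosmol/kg, and most of the isotonic difference was *Nfatc2*. *Nfatc2* made up 16.9% of the summed FPKM of the 5 NFAT genes in Scr_300 and 28.1% in *Nfat5*-KO_300, and 12.1% in Scr_600 against 17.6% in *Nfat5*-KO_600. The share of *Nfat5* was 27.5% in Scr_300, 34.5% in Scr_600, 16.5% in *Nfat5*-KO_300 and 27.2% in *Nfat5*-KO_600. The share of *Nfatc3* stayed between 40.8% and 43.9%. *Nfatc2* was therefore more abundant per length than *Nfat5* in *Nfat5*-KO_300 but in none of the other groups.

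**Figure D2:**
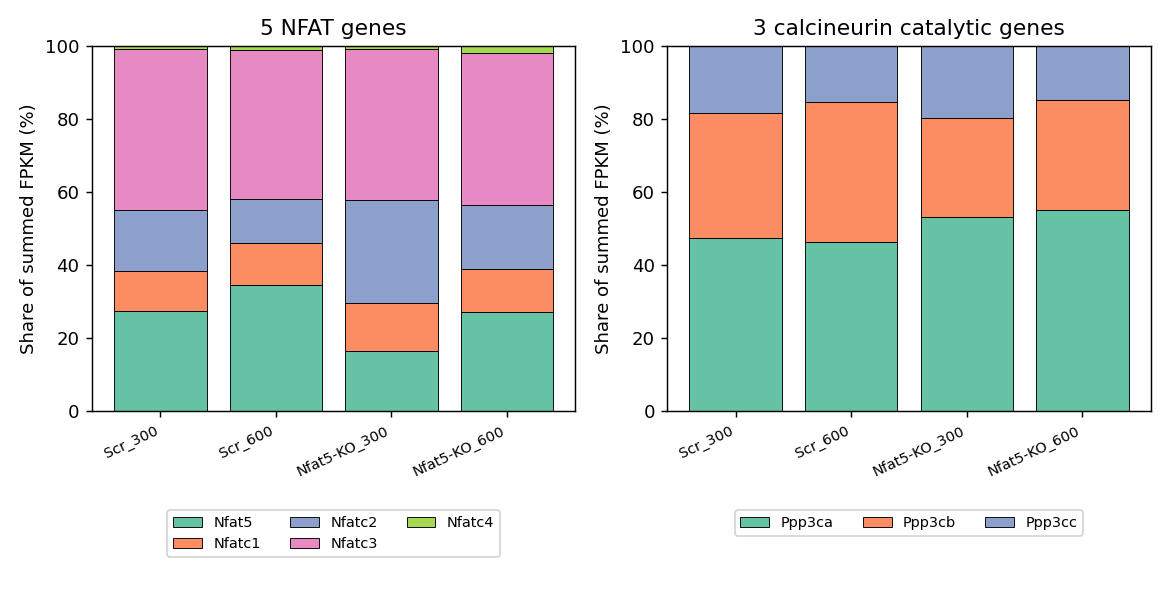
Share (%) of each gene in the summed FPKM of the 5 NFAT genes (left) and of the 3 calcineurin catalytic subunit genes (right), 1 stacked bar per group. The *Nfatc2* segment is widest, at 28.1%, and the *Nfat5* segment narrowest, at 16.5%, in *Nfat5*-KO_300, and *Ppp3ca* takes 53.2% and 55.0% of the catalytic sum in the *Nfat5*-KO groups.

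Calcineurin is a dimer of a catalytic and a regulatory subunit. *Ppp3r1* (chr11:17159263-17200375), which encodes the regulatory B subunit, measured 23.1 FPKM in Scr_300, 20.5 in Scr_600, 22.8 in *Nfat5*-KO_300 and 18.1 in *Nfat5*-KO_600. It shares 462 exonic bases with *Wdr92* on the same strand, which measured between 6.62 and 9.13 FPKM. *Ppp3ca* (chr3:136670124-136937727), the catalytic alpha subunit gene, measured 13.4 FPKM in Scr_300, 10.1 in Scr_600, 13.6 in *Nfat5*-KO_300 and 13.0 in *Nfat5*-KO_600. Scr_600 was the low group for *Ppp3ca*, with a log2 ratio of -0.41 to Scr_300, whereas the ratio of 600 to 300 in *Nfat5*-KO cells was -0.07 and turned positive with the values rescaled to a common sum (0.17) or by median-of-ratios factors (0.01).

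*Ppp3cb* (chr14:20499364-20546573), the catalytic beta subunit gene, measured 9.69 FPKM in Scr_300, 8.25 in Scr_600, 6.96 in *Nfat5*-KO_300 and 7.14 in *Nfat5*-KO_600. Both *Nfat5*-KO values lay below both Scr values. The isotonic log2 ratio to Scr was -0.47, with 8.93% of all genes as low or lower, and the hypertonic one was -0.20. Together with *Ppp3cc*, the third catalytic gene (5.24, 3.34, 5.02 and 3.48 FPKM in Scr_300, Scr_600, *Nfat5*-KO_300 and *Nfat5*-KO_600), the catalytic sum was 28.3, 21.6, 25.6 and 23.6 FPKM in the same order. *Ppp3cb* supplied 34.2% of this sum in Scr_300 and 27.2% in *Nfat5*-KO_300, and 38.1% in Scr_600 against 30.3% in *Nfat5*-KO_600.

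*Rcan1* (chr16:92391953-92470867, minus strand, 7 transcripts) had the widest range of the 9 genes. Its level was 6.24 FPKM in Scr_300, 10.1 in Scr_600, 9.90 in *Nfat5*-KO_300 and 19.9 in *Nfat5*-KO_600, so that the highest group was 3.18 times the lowest. The hypertonic Scr and the isotonic *Nfat5*-KO values were nearly equal, and the group with both conditions stood above all others. In order of level, *Rcan1* ranked 5 of the 9 genes in Scr_300 and 1 in *Nfat5*-KO_600, where it exceeded *Ppp3r1*. The ratio of *Rcan1* to the catalytic sum was 0.220 in Scr_300, 0.466 in Scr_600, 0.387 in *Nfat5*-KO_300 and 0.841 in *Nfat5*-KO_600.

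The log2 ratio of *Rcan1* between *Nfat5*-KO and Scr was 0.66 at 300 and 0.97 at 600 mosmol/kg, and 4.23% and 3.99% of all genes compared had ratios as high or higher. The hypertonic value relative to the isotonic one gave 0.68 in Scr and 1.00 in *Nfat5*-KO cells, with 8.40% and 6.29% of all genes as high or higher. The difference between the tonicity effects of the genotypes was 0.31, and 42.3% of the 13414 genes had a difference at least as large in either direction. The 4 ratios share their groups and are not independent of each other. Whether the additional *Rcan1* reads came from the outer or the inner promoter shown above was not measured, since the table has 1 value for the gene.

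Counted over the members, no gene reached 2-fold. Of the 8 members compared, 0 were past 2-fold in *Nfat5*-KO_300 against Scr_300, where 4.17% of all genes were, 0 in *Nfat5*-KO_600 against Scr_600 (7.44% of all genes), 0 in Scr_600 against Scr_300 (7.67%) and 0 in *Nfat5*-KO_600 against *Nfat5*-KO_300 (10.4%). The last of these counts lies at the edge of the threshold: *Rcan1* was 1.996-fold and *Nfat5* 1.96-fold higher, and both passed 2-fold with median-of-ratios factors (log2 ratios of 1.08 and 1.05) or after rescaling to a common sum (1.24 and 1.22). *Rcan1* also passed it after rescaling in *Nfat5*-KO_600 against Scr_600, at 1.10.

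At 1.5-fold, 3 of the 8 members differed between *Nfat5*-KO_300 and Scr_300, with *Nfatc2* and *Rcan1* higher and *Nfat5* lower, where 11.5% of all genes did. In *Nfat5*-KO_600 against Scr_600 there were 2, *Nfatc2* and *Rcan1*, both higher (19.3% of all genes). In Scr_600 against Scr_300 only *Rcan1* was past 1.5-fold (19.4%), and in *Nfat5*-KO_600 against *Nfat5*-KO_300 *Nfat5* and *Rcan1* were (27.9%), all higher. The tonicity effect differed between genotypes by 2-fold for 0 of the 8 members (7.04% of all genes) and by 1.5-fold for 0 (18.2%). The median log2 ratio of the members was 0.00, 0.15, -0.05 and 0.06 in the 4 comparisons, beside 0.00, -0.02, -0.04 and -0.04 for all genes.

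**Figure D3:**
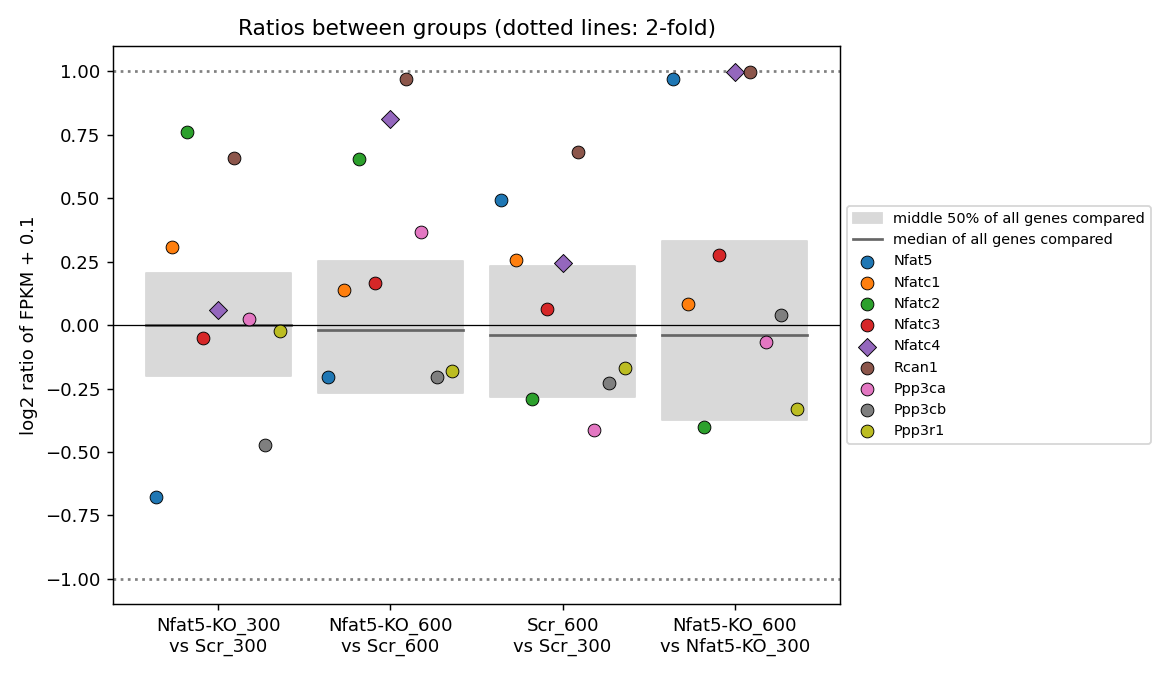
Log2 ratio of FPKM + 0.1 (y axis) of the 9 genes in the 4 comparisons, with the median and the middle 50% of all genes compared in grey, 2-fold as dotted lines and *Nfatc4*, which stayed under 0.5 FPKM, as a diamond. *Rcan1* lies above the grey band in all 4 comparisons and *Nfatc2* above it in both comparisons of *Nfat5*-KO with Scr, while *Nfatc3* lies within it in all 4.

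In both genotypes the *Nfat5* value was higher in hypertonic than in isotonic medium. Expressed as a log2 ratio the difference was 0.49 in Scr cells, matched or exceeded by 12.7% of all genes, and 0.97 in *Nfat5*-KO cells, matched or exceeded by 6.59%. The tonicity effects of the genotypes differed by 0.48, which was as large or larger for 25.5% of all genes.

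*Nfatc1*, which encodes the NFAT that amplifies its own expression in lymphocytes and osteoclasts, lies on chromosome 18 and measured 2.21 FPKM in Scr_300, 2.66 in Scr_600, 2.76 in *Nfat5*-KO_300 and 2.93 in *Nfat5*-KO_600. Scr_300 was the lowest and *Nfat5*-KO_600 the highest. Its isotonic log2 ratio of *Nfat5*-KO to Scr, 0.31, was close to the median of the 28 genes that start within 5 Mb of it, 0.30, of which 23 were above 0. At 600 mosmol/kg *Nfatc1* was at 0.14 and these neighbours at a median of 0.21.

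The other members were set beside their neighbours in the same way, since clones can differ by region of a chromosome. The median isotonic log2 ratio was 0.00 for 115 genes around *Nfat5*, of which 3 were as low as *Nfat5* or lower. Around *Nfatc2* it was 0.02, and 1 of 76 genes was as high as *Nfatc2* or higher at 300 mosmol/kg and 6 of 81 at 600. Around *Rcan1* it was 0.06 at 300, with 4 of 45 genes as high or higher, but 0.26 at 600 mosmol/kg, with 4 of 48. The *Rcan1* ratio therefore exceeded the median of its region by 0.60 and 0.72. For *Ppp3cb* the isotonic median was -0.07 and 7 of 45 genes were as low or lower.

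**Figure D4:**
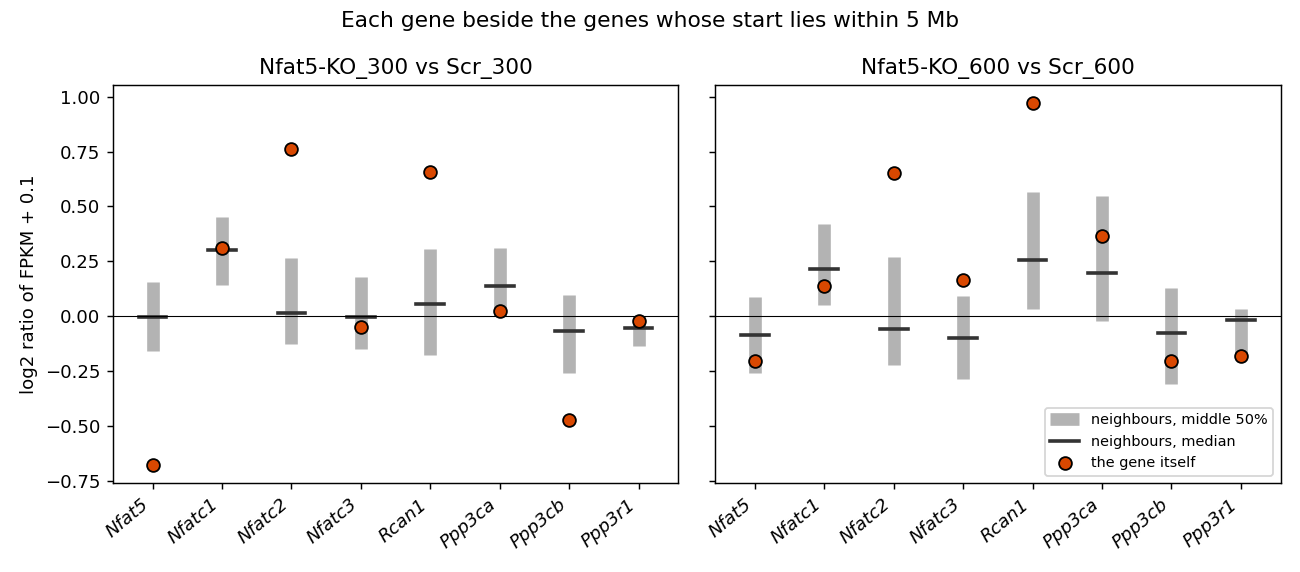
Log2 ratio of FPKM + 0.1 (y axis) of 8 genes (orange points) beside the median (black bar) and middle 50% (grey) of the genes that start within 5 Mb, in *Nfat5*-KO_300 against Scr_300 (left) and *Nfat5*-KO_600 against Scr_600 (right). *Nfatc1* lies at the median of its neighbours at 300 mosmol/kg, 0.31 beside 0.30, whereas *Nfatc2* and *Rcan1* lie above the middle 50% of theirs in both comparisons.

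Further genes of the pathway were followed through 5 lists. Of 14 listed further calcineurin genes, inhibitors and calmodulins, 9 were compared and 0 were past 2-fold in any of the 4 comparisons, in which 4.17% to 10.4% of all genes were. With lists this short, such counts lie near the share of all genes, and the same holds for the lists below. *Rcan3*, a relative of *Rcan1*, measured 7.33, 6.54, 6.01 and 6.18 FPKM in Scr_300, Scr_600, *Nfat5*-KO_300 and *Nfat5*-KO_600, and *Rcan2* did not exceed 0.01 FPKM. *Cabin1*, which encodes a calcineurin-binding inhibitor, measured 7.14, 8.07, 7.96 and 9.61 FPKM, and *Calm2*, the most abundant calmodulin gene, 494, 432, 391 and 387 FPKM in the same order. Of the 9 genes compared, the third catalytic gene *Ppp3cc* was the one past 1.5-fold in any comparison, with a log2 ratio of -0.63 between Scr_600 and Scr_300. *Tbc1d10c*, a calcineurin inhibitor gene under 0.5 FPKM, measured 0.284 FPKM in Scr_600 and 0.108 in *Nfat5*-KO_600. *Rcan3*, unlike *Rcan1*, was not past 1.5-fold in any comparison, and *Rcan2* was too low to compare.

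Calcium release and store-operated entry were represented by 13 genes, of which 11 were compared. Between *Nfat5*-KO and Scr cells, 0 were past 1.5-fold at 300 mosmol/kg (11.5% of all genes) and 0 at 600 (19.3%). In hypertonic against isotonic medium, 8 of the 11 log2 ratios were above 0 in Scr cells, where 45.4% of all genes were. In *Nfat5*-KO cells 9 were, where 47.1% of all genes were. The medians of the list were 0.20 and 0.29, beside -0.04 for all genes in each genotype. Hypertonicity gave 1 gene past 2-fold in each genotype, where 7.67% of all genes were in Scr and 10.4% in *Nfat5*-KO cells. In Scr cells this was *Orai2*, a store-operated channel subunit gene, which rose from 1.70 to 3.71 FPKM. In *Nfat5*-KO cells it was *Itpr2*, an inositol trisphosphate receptor gene, which rose from 2.48 to 5.83 FPKM and was at 3.36 and 4.29 FPKM in Scr cells. The channel gene *Orai1* measured between 9.32 and 11.5 FPKM and the calcium sensor gene *Stim1* between 3.33 and 4.13 FPKM.

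Of 16 listed kinases that rephosphorylate NFATc proteins and factors of their nuclear export, 13 were compared. Between the genotypes 0 were past 2-fold, where 4.17% of all genes were at 300 mosmol/kg and 7.44% at 600. Hypertonicity gave 0 past 2-fold in Scr cells (7.67% of all genes) and 1 in *Nfat5*-KO cells (10.4%). *Gsk3b*, a kinase that drives NFATc out of the nucleus, had a log2 ratio of 0.63 between *Nfat5*-KO_600 and Scr_600 (13.6 against 8.77 FPKM). The kinase gene *Dyrk1b* rose from 1.86 FPKM in *Nfat5*-KO_300 to 5.98 in *Nfat5*-KO_600 and measured 2.54 and 3.34 FPKM in Scr_300 and Scr_600. *Dyrk1a* was between 6.20 and 9.11 FPKM and the exportin gene *Xpo1* between 23.9 and 30.9 FPKM.

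Reported regulators and partners of NFAT5 numbered 18, of which 17 were compared. In the 4 comparisons 0 were past 2-fold, where 4.17% to 10.4% of all genes were. The phosphatase gene *Ptpn6* measured 4.49, 4.46, 6.41 and 7.35 FPKM in Scr_300, Scr_600, *Nfat5*-KO_300 and *Nfat5*-KO_600, and the DNA damage kinase gene *Atm* 3.60, 4.38, 3.51 and 5.82 FPKM. The p38 kinase gene *Mapk14* ranged from 37.6 to 42.1 FPKM. The 5 NF-kappaB subunit genes, whose products have the Rel fold, had 0 past 1.5-fold in any comparison, where 11.5% to 27.9% of all genes were. Their median log2 ratio of *Nfat5*-KO to Scr was 0.07 at 300 and -0.19 at 600 mosmol/kg. *Rela* was the most abundant of them, between 58.0 and 69.6 FPKM.

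**Figure D5:**
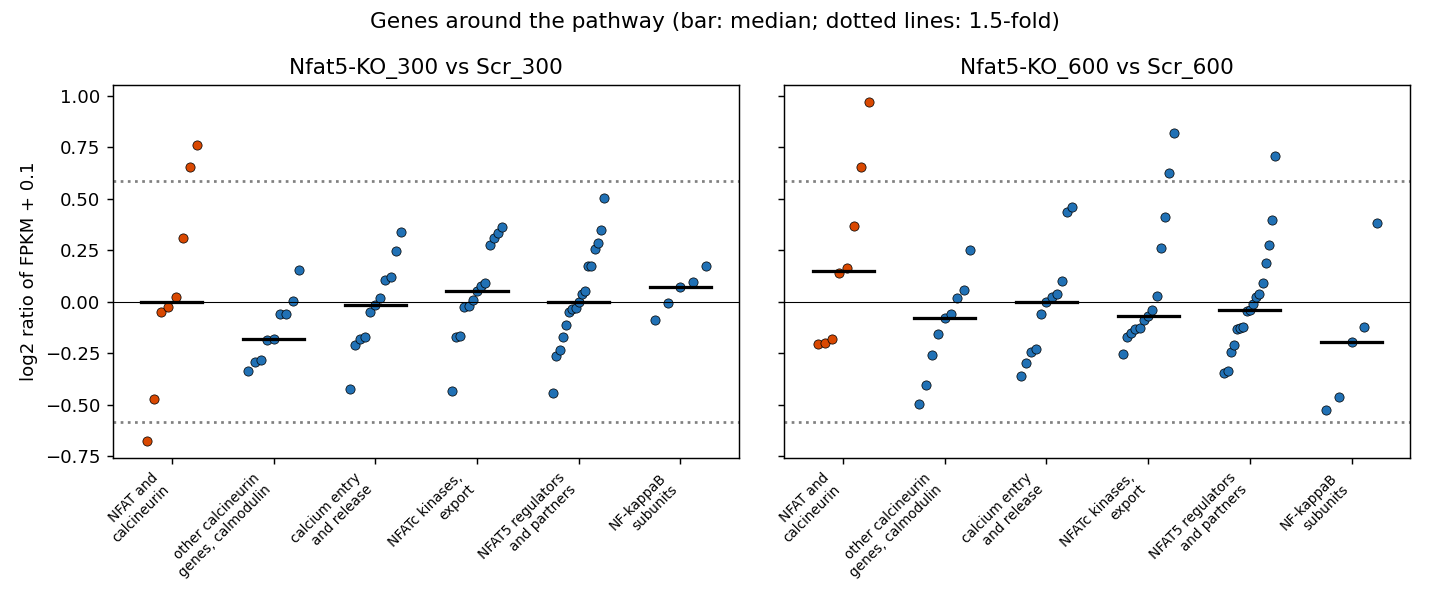
Log2 ratio of FPKM + 0.1 (y axis) between *Nfat5*-KO and Scr at 300 (left) and 600 mosmol/kg (right) for the members compared (orange) and for 5 lists of pathway genes (blue), 1 point per gene, with bars for medians and dotted lines for 1.5-fold. At 300 mosmol/kg, where 11.5% of all genes are past 1.5-fold, no gene of the 5 lists is, while *Nfatc2*, *Rcan1* and the edited *Nfat5* are. At 600 mosmol/kg, where 19.3% of all genes are, *Nfatc2* and *Rcan1* are past it, as are *Gsk3b*, *Dyrk1b* and *Ptpn6* of the lists.

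Genes with a profile like that of *Nfat5* or *Rcan1* were sought by the Euclidean distance between the 4 log2 values, each centred on its mean over the groups, among 10478 genes with at least 1 FPKM in every group. Closest to *Nfat5* were *Snx30*, *Rnf5*, *Slc30a4*, *Cdkn2b* and *Fam57a*, at distances from 0.107 to 0.130, where the median gene was at 1.01 and 32 genes lay within 0.25. Closest to *Rcan1* were *Slc27a4*, *Pdzk1ip1*, *Rtl10*, *Myl6b* and *Atxn7l2*, at 0.149 to 0.234, with a median of 1.28 and 7 genes within 0.25. *Slc27a4*, a fatty acid transport protein gene, measured 7.67, 11.9, 10.9 and 21.5 FPKM in Scr_300, Scr_600, *Nfat5*-KO_300 and *Nfat5*-KO_600. With 4 values per gene, such likeness is a description.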

How the data were processed

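Per the labels, total RNA of mpkCCD cells was converted into libraries with the NEBNext Ultra kit, and the authors mapped reads to mm10 (GRCm38) with HISAT2, counted them per gene with HTSeq and deposited FPKM values, 1 per gene and group. How libraries were combined into the group value, the annotation release and the tool versions are not given in the sources used here. Of 54839 rows, 52403 held a name and a value. After removal of 311 exact duplicates and 37 symbols with several rows, 52015 genes remained, with FPKM sums from 212247 to 253756. FPKM carries neither counts nor depth, so no interval was calculated.

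Groups were compared as log2 ratios of FPKM + 0.1, for a single gene where both groups had at least 0.1 FPKM. Counts and medians used genes with at least 0.5 FPKM in 1 of the 2 groups, and a 2-fold difference (alternatively 1.5-fold) stood in for a call. No test was made with 1 value per group. The code that counts genes past a fold was tested on simulated data with known folds, which says nothing about replicate spread. Coordinates, overlaps and neighbours came from GENCODE M21 (GRCm38), to which 13258 of the 13414 genes that reached 0.5 FPKM matched by symbol, and promoters from RefSeq (GRCm38.p6). Stretches shared with other genes were sought with minimap2 2.31-r1302 (at least 90% identity over 100 bases). The motif and shared-stretch searches were chosen after the values were seen. Alternatives were pseudocounts of 1 and 0.01 FPKM, median-of-ratios factors, rescaling to a common sum, other filters, the 1.5-fold threshold and neighbours within 1 Mb. Analyses used Python 3.11.15 with pandas 2.3.3, numpy 2.4.6 and matplotlib 3.10.9.

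The members and gene lists were chosen with earlier results of these data known. Named were the 9 members, genes that overlap them, list genes past 2-fold or among up to 4 best known per list, and the 5 genes most like *Nfat5* or *Rcan1*. The genes *Ppp3cc*, *Rcan2*, *Tbc1d10c*, *Gsk3b*, *Ptpn6* and *Atm* were also singled out for their values or family.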

Additional observations from a re-analysis of the deposited data

How the results depend on the processing

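No paired analysis was possible because the deposited columns hold 1 value per group and carry no replicate numbers, and for the same reason no library could be left out. No ratio past 1.5-fold turned its direction under any alternative run. Members past 2-fold numbered 0 in each comparison. Rescaling to a common sum gave 1 in *Nfat5*-KO_600 against Scr_600 (*Rcan1*) and 2 in *Nfat5*-KO_600 against *Nfat5*-KO_300 (*Nfat5* and *Rcan1*), where median-of-ratios factors also gave 2 and a pseudocount of 0.01 FPKM gave 1. The 1.5-fold threshold gave 3, 2, 1 and 2 in *Nfat5*-KO_300 against Scr_300, *Nfat5*-KO_600 against Scr_600, Scr_600 against Scr_300 and *Nfat5*-KO_600 against *Nfat5*-KO_300, the order kept below.

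Rescaling moved the median of all genes by 0.02, 0.13, 0.13 and 0.24 on the log2 scale, and that of the members to 0.015, 0.28, 0.076 and 0.30. Relative to the median of all genes, *Rcan1* in *Nfat5*-KO_600 was then at 1.00 against Scr_600 (0.99 as deposited) and at 1.04 against *Nfat5*-KO_300 (1.04 as deposited). Without a filter, which adds *Nfatc4*, the median of the members was 0.023 in *Nfat5*-KO_300 against Scr_300 and 0.062 in Scr_600 against Scr_300. Rescaling also raised the share of higher genes among those past 2-fold from 50.5% to 61.2% in *Nfat5*-KO_600 against Scr_600 and from 60.3% to 80.8% in *Nfat5*-KO_600 against *Nfat5*-KO_300, and it turned the difference of the tonicity effects of *Nfatc2* from -0.11 to 0.01.

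All genes past 2-fold numbered 530, 972, 992 and 1346. They were 135, 338, 375 and 489 with a pseudocount of 1 FPKM, 259, 548, 553 and 855 with a mean of at least 1 FPKM, and 1228, 1884, 1835 and 2211 without a filter. Within 1 Mb instead of 5 Mb, 15 of 36 neighbour medians moved by over 0.1 or changed sign. The isotonic median was then 0.14 around *Nfatc2* and -0.07 around *Rcan1*. The cause of these shifts was not tested. The spread between libraries and clones, and the depth, are unknown, so no difference could be set against them.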
